A study of Homo sapiens with 2 samples.

Results

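Notch signalling was followed through 10 genes on 2 arrays of colon cancer cells. All probes carrying the symbols JAG1, JAG2, NOTCH1, NOTCH2, NOTCH3, RBPJ, HES1, HEY1, NRARP and NUMBL in the platform annotation were taken, which gave 10 of 20046 named genes and 18 of the 47323 probes on the array. One array held RNA of HCT-8, a long-established line of human colon cancer cells, called parental below. The other held RNA of HCT-8/V, its derivative with resistance to vincristine, called resistant below. The medium for both was RPMI plus fetal bovine serum. Transfer of the plasmid pcDNA3.1-Twist preceded RNA extraction by 48 h in each culture, so neither is an untreated control by its label. The question is how the pathway compares between the resistant and the parental culture, both with the plasmid. NRARP, RBPJ and NUMBL were included because earlier inspection of these same values had shown them to differ by at least 2-fold, so their differences are a description and are not tested. With 1 array per line there is no replicate of any value, and no p-value is given.

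Notch receptors are single-pass membrane proteins that are activated by ligands of the Jagged and Delta families on a neighbouring cell. Cleavage by an ADAM protease and then by gamma-secretase frees the receptor's intracellular domain, which enters the nucleus and binds the DNA-binding protein RBPJ together with a Mastermind coactivator. Genes of the HES and HEY families and NRARP are common targets of this complex, and in the intestinal crypt the pathway keeps progenitor cells from becoming secretory cells.

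The DNA around the transcription starts of the members is described first. Promoter windows of 300 bases, with 250 before and 50 after the start, were read from RefSeq (GRCh38.p14) and matched 9 of the 10 genes in 14 windows. HEY1 was not matched. The windows were searched on both strands for GTGNGAA, which includes GTGGGAA, the core sequence that RBPJ recognises. The window of NRARP is shown because its reading differed most, that of RBPJ because the gene encodes the DNA-binding partner itself, and that of HES1 as a well-known target. Each is written 5′ to 3′ on the gene's own strand, with matches in capitals.
NRARP (chr9:137302222-137302521, minus strand): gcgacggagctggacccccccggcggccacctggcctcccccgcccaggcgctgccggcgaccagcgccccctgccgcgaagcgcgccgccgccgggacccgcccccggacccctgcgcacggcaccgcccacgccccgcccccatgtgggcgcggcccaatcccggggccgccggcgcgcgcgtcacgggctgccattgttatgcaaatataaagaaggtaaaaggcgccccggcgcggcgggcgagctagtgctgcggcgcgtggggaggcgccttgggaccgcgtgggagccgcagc
RBPJ (chr4:26319496-26319795, plus strand): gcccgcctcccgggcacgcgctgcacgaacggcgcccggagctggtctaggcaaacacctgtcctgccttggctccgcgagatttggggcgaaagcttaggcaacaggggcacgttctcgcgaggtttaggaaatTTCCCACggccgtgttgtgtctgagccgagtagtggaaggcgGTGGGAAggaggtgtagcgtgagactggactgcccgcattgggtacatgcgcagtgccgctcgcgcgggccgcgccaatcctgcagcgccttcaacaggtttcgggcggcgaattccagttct
HES1 (chr3:194135898-194136197, plus strand): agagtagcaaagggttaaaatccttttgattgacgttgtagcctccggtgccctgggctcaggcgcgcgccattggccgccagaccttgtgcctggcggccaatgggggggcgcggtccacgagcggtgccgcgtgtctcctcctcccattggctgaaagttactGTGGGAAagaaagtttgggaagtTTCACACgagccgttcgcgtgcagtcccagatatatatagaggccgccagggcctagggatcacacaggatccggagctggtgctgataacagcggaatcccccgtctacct
The HES1 window held GTGGGAA on the plus strand from -85 to -79 and TTCACAC, the minus-strand form, from -62 to -56, counted from the start. The RBPJ window held TTCCCAC from -115 to -109 and GTGGGAA from -73 to -67. It is 1 of 5 windows at alternative starts of RBPJ, and the others held no match. The NRARP window had no match, and neither had the windows of the remaining 6 genes. Of all 35116 windows in the table, 13.8% held GTGNGAA at least once and 1.26% at least 2 times, while 6.25% held GTGGGAA and 0.248% held it at least 2 times. A match of letters is a description of the sequence and does not show that RBPJ binds there.

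Deposited values were linear intensities that had already been background-subtracted and matched in distribution between the arrays. The median over all probes (12.44 on the parental array, 12.42 on the resistant one) was used as a floor, and values below it were raised to it before log2 was taken. The 75th percentile (81.3 on both arrays) was used as a higher floor. Every difference is resistant minus parental, and a fold is written as "at least" where only 1 array was above the floor. Over the 13272 probes whose mean intensity was below 0, the intensities of both arrays differed with a standard deviation of 10.7, and 95% differed by no more than 21.4. As a check on dim values, 45.98 was also added to every intensity in place of the floor, which shrinks every ratio by construction. TWIST1, taken here as the gene that pcDNA3.1-Twist carries, read 163 in parental and 185 in resistant cells. Whether its probe reads the transferred copy was not checked. Of 14 colon epithelial markers, 6 were above the floor in each line. These were KRT8 (2199 and 2283), KRT18 (445 and 560), EPCAM (117 and 80.0), CDH17 (66.4 and 65.6), GPA33 (40.9 and 47.1) and KRT19. KRT19 lay only just above the floor (12.8 and 12.8). CDH1, VIL1, CDX1, CDX2, KRT20, MUC2, LGALS4 and CEACAM5 were at or below it in both, so most of the 14 were not measured above the floor. Of 7 fibroblast or mesenchymal markers, 5 were above the floor in parental and 6 in resistant cells, with summed intensities of 6843 and 7186. VIM (5921 and 5944) made up most of both sums, followed by DCN (625 and 854), while COL1A2 was below the floor in both. Of 5 endothelial markers, a cell type rich in Notch gene expression, 2 were above the floor in parental and 3 in resistant cells. The summed intensities of the 5 were 134 and 115. TEK (99.7 and 85.8) made up most of both sums and exceeded the higher floor in both lines, while CDH5 and KDR were below 0 in both. Of 4 leukocyte markers measured, 2 were above the floor in each line, with summed intensities of 871 and 1176, nearly all of it from CD68, while PTPRC and CD3E were at or below the floor. Their part in the differences that follow was not tested.

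Of the 18 probes, 14 exceeded the floor in at least 1 line and 4 in neither, and all 10 genes had at least 1 probe above it. Among the 14, 1 probe was at least 2-fold higher in HCT-8/V, where 4.15% of 18739 named probes above the floor were, and 3 were at least 2-fold lower, where 4.40% were. The 4 together make 28.6% of the 14, beside 8.54% of all such probes. They belonged to NUMBL, NRARP and RBPJ, which had been chosen for it. Over all 14 the direction was split evenly, with 7 probes higher and 7 lower. The median log2 difference of the 14 was -0.03, beside 0.00097 over all named probes above the floor. The differences past 2-fold thus lay in NRARP, RBPJ and NUMBL, with the other members close between the lines.

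**Figure D1:**
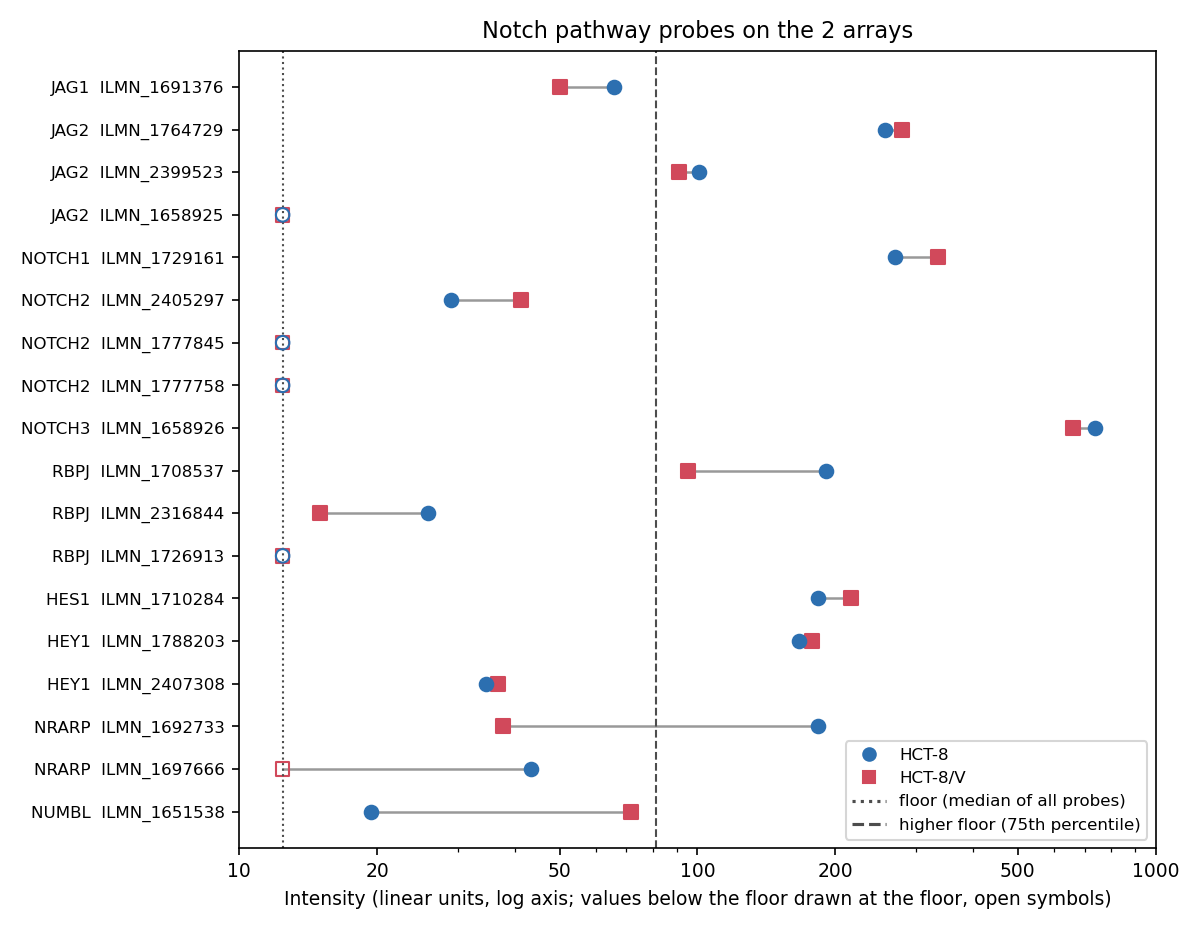
Intensity of each of the 18 probes on the HCT-8 array (circles) and the HCT-8/V array (squares), on a log axis, with genes ordered from ligands to inhibitors. The long lines are those of NRARP and RBPJ, which were lower in HCT-8/V, and of NUMBL, which was higher; open symbols mark values raised to the floor.

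Of the ligands, JAG1 had 1 probe and JAG2 had 3. JAG1, the Jagged ligand mutated in Alagille syndrome, read 65.6 in parental and 50.1 in resistant cells. This log2 difference of -0.39 (1.31-fold lower) lay within the standard deviation of 0.53 among probes of similar brightness. JAG2, the second Jagged ligand, read 257 and 279 on its brightest probe and 101 and 91.0 on the next. Its probes thus went in opposite directions, at log2 differences of 0.12 and -0.15. The remaining JAG2 probe was below 0 on both arrays, at -5.81 and -13.3, and carries no information on a difference.

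The receptors differed little. NOTCH1 read 270 in parental and 336 in resistant cells, a log2 difference of 0.31 (1.24-fold higher), where probes of similar brightness had a standard deviation of 0.36. NOTCH3, the receptor best known from vascular smooth muscle, read 738 and 661, a log2 difference of -0.16. NOTCH2 was dim: its brightest probe read 29.0 and 41.2, a log2 difference of 0.51, but the 12.2 units between the arrays are fewer than the 21.4 that 95% of the probes with a mean below 0 stayed within. The other NOTCH2 probes were below the floor in both lines, at 4.89 and 8.98 on one and -4.31 and -6.67 on the other. The annotation lists the near-identical paralog NOTCH2NLA with 3 probes of its own, the brightest of which read 223 and 255. Whether a probe of NOTCH2 also reads its paralogs was not checked. NOTCH1 and NOTCH3 were above the higher floor on both arrays, and NOTCH2 was below it on both.

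RBPJ, the DNA-binding partner through which all Notch receptors reach their targets, was lower in HCT-8/V on the probe that lay clear of the floor. That probe read 191 in parental and 95.4 in resistant cells, a log2 difference of -1.002 (2.003-fold lower), which is just past the 2-fold line. Of the 1874 named probes of similar brightness, 2.72% differed by as much in either direction. The second RBPJ probe read 25.8 and 15.0, a log2 difference of -0.78 (1.72-fold lower), as large as which 50.5% of probes at that brightness differed. Its gap of -10.8 units is smaller in size than the 21.4 that 95% of the probes with a mean below 0 stayed within. The third was below 0 in both lines, at -7.19 and -13.3, and carries no information on a difference. The 3 probes are annotated to different RefSeq transcripts of RBPJ. The mean over the 2 probes above the floor, an alternative chosen after seeing the data, gave a log2 difference of -0.89, under 2-fold. With the offset in place of the floor the brightest probe gave -0.75. RBPJ has processed pseudogenes in the RefSeq table (RBPJP2, RBPJP5, RBPJP6 and RBPJP7), and whether the probes also read them was not checked.

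HES1 and HEY1 did not share the lower reading of RBPJ. HES1, a basic helix-loop-helix repressor that answers Notch within hours, read 184 in parental and 216 in resistant cells, a log2 difference of 0.24 (1.18-fold higher). HEY1, a related repressor, read 167 and 178 on one probe and 34.5 and 36.7 on the other, log2 differences of 0.09 on each. All 3 readings were slightly higher in HCT-8/V, and each lay within the standard deviation of probes of similar brightness, which was 0.39 for HES1 and the brighter HEY1 probe and 0.72 for the dimmer one. With 1 array per line, differences of this size cannot be told from none.

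NRARP, the Notch-regulated ankyrin repeat protein, is both a target and a feedback inhibitor: it binds the complex of RBPJ and the Notch intracellular domain and lowers the level of that domain. Its brighter probe read 183 in parental and 37.7 in resistant cells, a log2 difference of -2.28 (4.86-fold lower). Of the 1873 named probes of similar brightness, itself included, 0.107% showed a difference as large. NRARP was chosen for its difference, so this share ranks the reading and tests nothing. The second NRARP probe read 43.3 in parental and 11.6 in resistant cells, where the latter was below the floor, so it was at least 3.49-fold lower (log2 -1.80). Of probes as bright as the dimmer one, 3.42% differed by as much in either direction. Brightness is averaged after the floor is applied. The dimmer probe, at the floor on 1 array, thus differed as much as its brightness allows. Still dimmer probes of that group could not differ by as much, so the share is partly set by the floor. In bulk RNA, fewer cells with NRARP transcript and less transcript per cell cannot be told apart. The mean of both probes gave a log2 difference of -2.04. At the higher floor, which only HCT-8 exceeded, the brighter probe was at least 2.25-fold lower (log2 -1.17). With the offset in place of the floor the log2 differences were -1.45 on the brighter probe and -0.63 on the dimmer one.

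Agreement of this kind between probes was uncommon on these arrays. Of 3785 genes with at least 2 probes above the floor, 8 (0.211%) had every such probe at least 2-fold lower in the resistant line, and 5 (0.132%) had every such probe at least 2-fold higher. NRARP was the only one with every such probe at least 3-fold lower (1 gene, 0.0264%), counting its second probe at its bound, and 0 genes (0.00%) had every such probe at least 3-fold higher. The second NRARP probe passed the floor only on the parental array, where it was higher, and 20.8% of probes in its brightness group were at least 2-fold lower. NRARP was chosen from these values, so this ranks the reading among genes and does not test it.

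NUMBL encodes a homolog of NUMB, an endocytic adaptor that opposes Notch at the membrane, and it was higher in the resistant line. Its single probe read 19.4 in parental and 71.6 in resistant cells, a log2 difference of 1.89 (3.70-fold higher). Of probes of similar brightness, 1.71% differed by as much in either direction. Neither array reached the higher floor for NUMBL, so no difference was measured there. With the offset in place of the floor the log2 difference was 0.85. NUMB itself, the better-known member of the pair, read 1011 and 951, a log2 difference of -0.09.

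**Figure D2:**
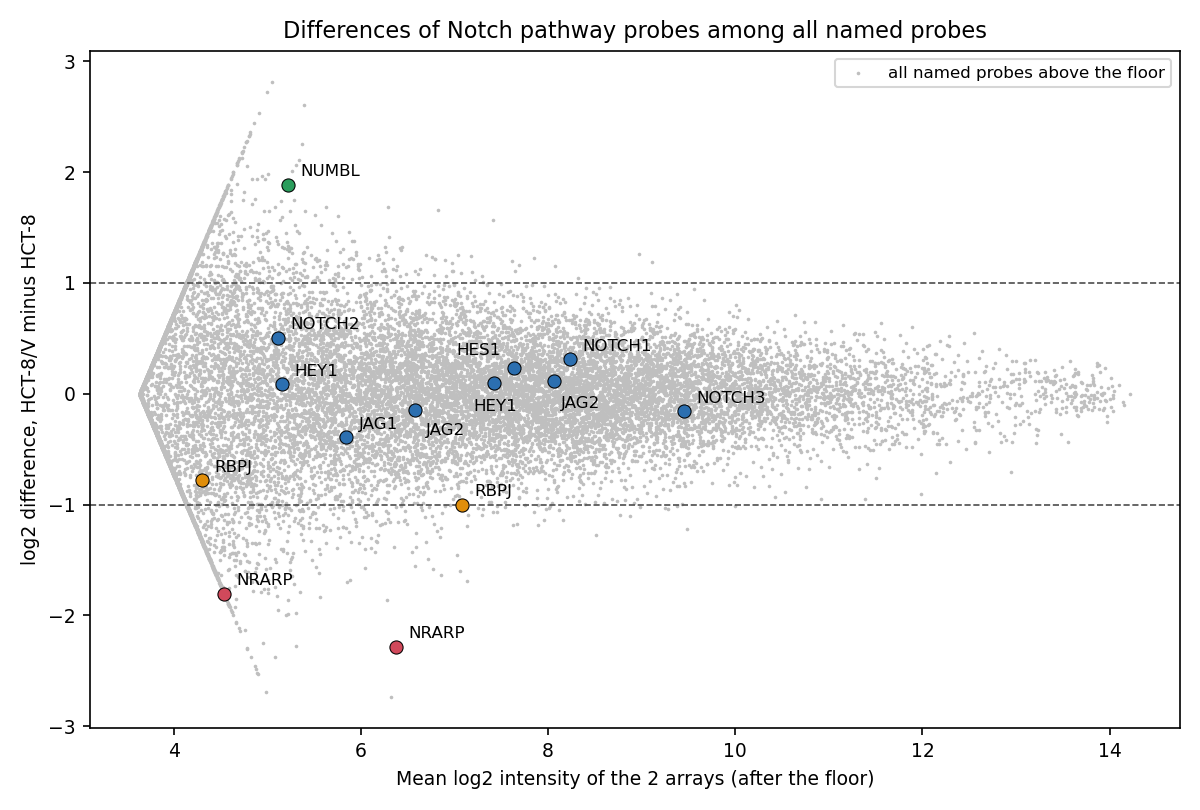
Log2 difference between the arrays (resistant minus parental) against mean log2 intensity for all named probes above the floor (grey) and for the 14 Notch pathway probes above it (coloured and labelled); dashed lines mark 2-fold. The brighter NRARP probe, at -2.28, lies below nearly all probes of its brightness, RBPJ lies on the 2-fold line and NUMBL lies among dim probes at 1.89.

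Apart from NRARP, RBPJ and NUMBL, the other 7 genes had 9 probes above the floor, of which 6 were higher and 3 lower in resistant cells. Their log2 differences ran from -0.39 for JAG1 to 0.51 for NOTCH2. None reached 1.5-fold in either direction, which 25.7% of named probes above the floor did, and all 9 lay within 1 standard deviation of the probes of similar brightness. These 7 genes were set apart after their values were seen.

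How often a 2-fold difference occurs depended strongly on brightness, which bears on the reading of the dim members. Named probes above the floor were divided into 10 groups of equal size by mean brightness. Group 1 is the dimmest. Its mean brightness reached only 15.1, so the floor left no room for a 2-fold difference there, and 0% showed one. In group 2 the floor also limits how large a difference can be. In group 3, which holds the dimmer probes of NRARP and RBPJ, 19.3% of probes were 2-fold or more higher and 20.8% were lower by as much. In group 4, with NUMBL, NOTCH2 and the dimmer HEY1 probe, 7.74% were higher and 7.79% lower. In group 5, with JAG1 and the brighter NRARP probe, 3.04% were higher and 3.04% lower, and in group 6, with the brightest RBPJ probe, 1.07% and 1.65%. In groups 7 to 9, which hold HES1, NOTCH1, NOTCH3 and the brightest probes of HEY1 and JAG2, at most 0.427% were higher and at most 0.694% lower. At the higher floor, 8 probes of 7 genes could be read. Of these, 2 were at least 2-fold lower, those of NRARP and RBPJ, where 0.476% of 10079 named probes were, and 0 were at least 2-fold higher, where 0.248% were. Both genes had been chosen for such a difference in these same values, and NRARP exceeded the higher floor only in HCT-8. The count is therefore a description and not a test.

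**Figure D3:**
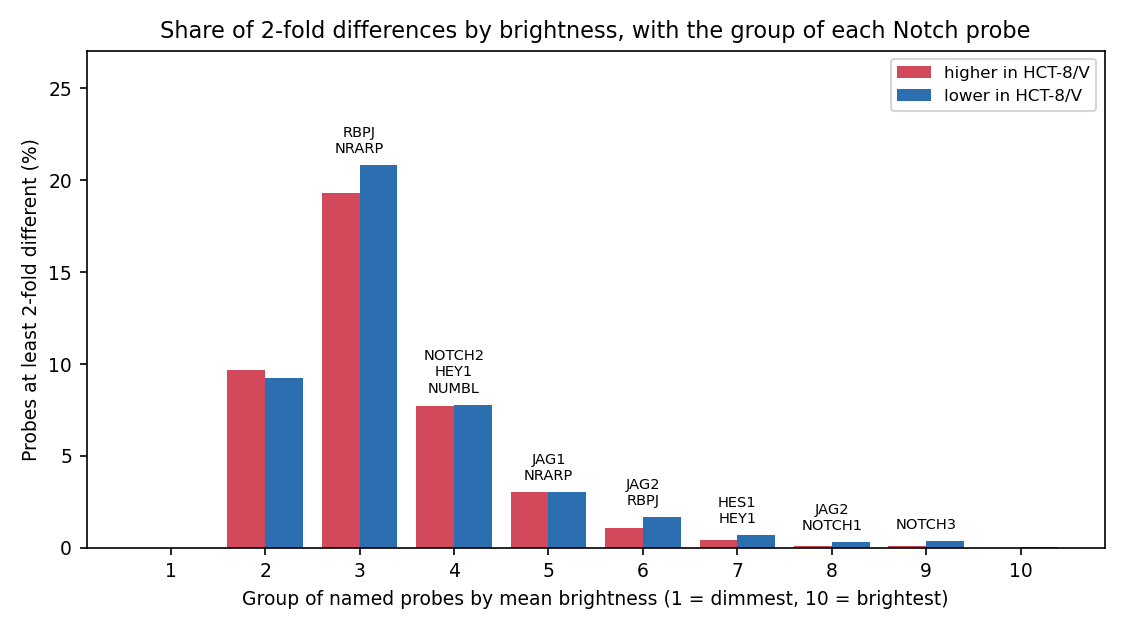
Share of named probes (percent) that were at least 2-fold higher or lower in HCT-8/V, in each of 10 groups of mean brightness, from 1 (dimmest) to 10; the gene names above the bars show the group of each Notch pathway probe. The share peaks in group 3, at 19.3% higher and 20.8% lower, and is below 1% in each direction from group 7 on. In groups 1 and 2 the floor itself limits how large a difference can be.

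The remaining machinery of the pathway was read from a list of 96 further genes in 9 roles, with the brightest probe standing for a gene. The mean over all probes turned the direction of some genes, so the counts by role depend on this choice. A named probe was matched for 88 of them and 74 were above the floor. Of the 74, 35 were higher and 39 lower in the resistant line. At least 2-fold higher were 2 genes, where 4.24% of all 13763 genes above the floor were, and at least 2-fold lower were 3, where 3.77% were. Together these make 6.76% of the 74, beside 8.01% of all genes. The median log2 difference was -0.03, beside 0.03 for all genes. At the higher floor 53 of the listed genes could be read, and 0 of them were at least 2-fold different, where 0.612% of all genes were.

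Among ligands and ligand-like proteins 5 of 9 were above the floor, and DLL1, DLL4 and DLK1 were below 0 in both lines. MFAP2, a microfibril protein reported to bind a Jagged ligand, read 15.4 in parental and 39.9 in resistant cells (2.59-fold higher), but the mean of its 3 probes turned the direction, to a log2 difference of -0.04. MFAP5, its relative, read 24.7 and 13.3, and DLK2, a ligand-like protein without the Notch-activating domain, read 107 and 181. NOTCH4, the receptor of endothelium, was below 0 in both lines.

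Of the enzymes and ligases that glycosylate receptors or drive ligand uptake, 3 were higher and 7 lower. The Fringe glycosyltransferase MFNG was dim and 2.51-fold higher, at 13.8 in parental and 34.6 in resistant cells, a gap of 20.8 units that is within the 21.4 given above. Another Fringe gene, RFNG, read 118 and 68.8, with the direction turned by the mean of its probes (log2 0.15), and the sugar transferase gene EOGT read 86.6 and 50.3. Of the 8 genes of proteolytic activation above the floor, 5 were higher and 3 lower, with a median log2 difference of 0.26. ADAM17, among the 5, turned from a log2 difference of 0.49 to -0.23 with the mean of its probes. PSEN2, a catalytic subunit of gamma-secretase, read 118 and 185, and NCSTN, its substrate-binding subunit, read 439 and 641. FURIN, which cleaves the receptor during its maturation, read 288 and 191. All 8 were within 2-fold.

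Of 9 nuclear coactivators above the floor, 2 were higher and 7 lower, with a median log2 difference of -0.32. Of all genes above the floor, 52.8% were higher and 47.1% lower. Past 2-fold lay 1 of the 9, and 0 did at the higher floor. MAML2, a Mastermind coactivator that docks on the complex of RBPJ and Notch, read 37.6 in parental and 0.766 in resistant cells and was at least 3.03-fold lower, on 1 dim probe. MAML1 read 86.9 and 63.3, and the Mediator kinase gene CDK8 read 34.4 and 23.2. MAML3 was below the floor in both lines. Corepressors were split, with 7 higher and 6 lower of 13. The mean of the probes turned CTBP1 (log2 0.63 to -0.41) and HDAC2 (-0.11 to 0.33). TLE2, a Groucho corepressor recruited by HES proteins, read 64.9 and 114, and CTBP2 read 103 and 177, with the direction turned by the mean of its probes (log2 -0.12). BEND6, a corepressor of RBPJ known from mouse, read 41.3 and 24.9.

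Of the genes of endocytosis and turnover 6 were higher and 6 lower. DTX3L, an E3 ligase of the Deltex family, was at least 2.73-fold lower, at 33.9 in parental and 4.83 in resistant cells, on a dim probe. The Dishevelled genes DVL1 and DVL3 of Wnt signalling read 0.195 and 20.3, a gap of 20.1 units that is within the same 21.4, and 268 and 169. Of the other HES and HEY genes, 6 were higher and 1 lower, where 52.8% of all genes above the floor were higher. The median log2 difference was 0.18, and HES4, HES5 and HEY2 were higher by only 0.18, 0.15 and 0.0078. HES7, an oscillating repressor of somite formation known from mouse, was 2.14-fold lower, at 101 and 47.4, with a log2 difference of -0.32 at the higher floor, which only parental cells exceeded. HES6, which counteracts HES1 in mouse, read 154 and 287. HEYL read 3.22 and 17.1, a gap of 13.9 units that is also within the 21.4. Among other reported targets 3 were higher and 7 lower, and the 3 with the largest differences, IL2RA (27.4 and 15.0), PTCRA (17.7 and 1.39) and BCL2 (49.0 and 36.0), were below the higher floor on both arrays.

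**Figure D4:**
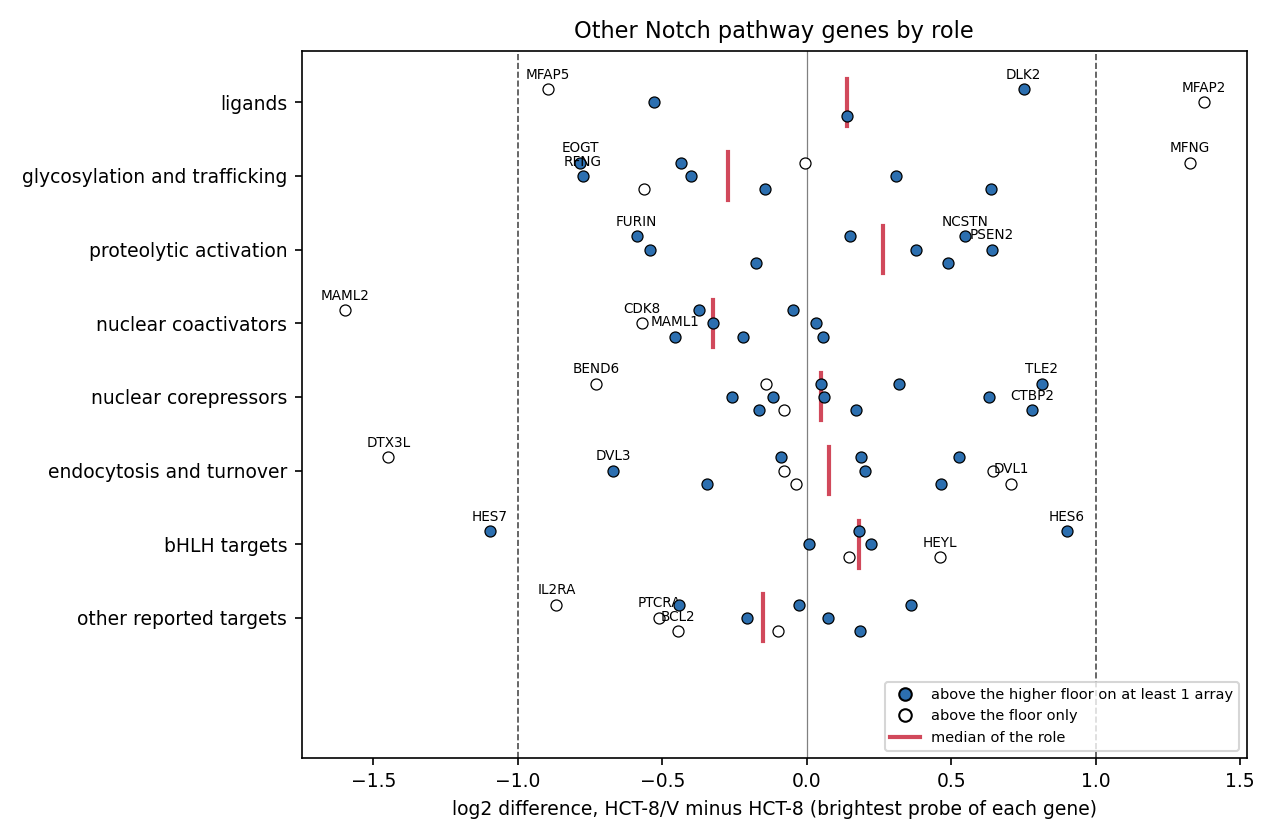
Log2 difference (resistant minus parental) of the 74 further Notch pathway genes above the floor, by role; filled points were above the higher floor on at least 1 array, open points were dimmer, and red bars give the median of each role. Beyond the dashed 2-fold lines lie MFAP2 and MFNG on the higher side and MAML2, DTX3L and HES7 on the lower side.

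Position along the chromosomes was compared because NRARP and NOTCH1 both lie on chromosome 9. NOTCH1 was slightly higher and NRARP lower, so they differed in opposite directions. Of the 10 genes above the floor on each side of NRARP, 13 of 20 were higher and 7 lower in the resistant line, with a median log2 difference of 0.11. At least 2-fold higher was 1 of the 20, beside 4.24% of all genes, and 3 (15.0%) were at least 2-fold lower, beside 3.77%. Those 3 were EHMT1 (35.5 and 4.29, at least 2.86-fold), STPG3 (27.7 and 7.18, at least 2.23-fold) and ARRDC1 (48.7 and 23.2, 2.10-fold), all dim. The nearest gene before NRARP, TOR4A, read 632 in parental and 325 in resistant cells (1.94-fold lower), and the nearest after it, EXD3, was dim and higher (10.3 and 26.7). Around RBPJ on chromosome 4, 15 of 20 were higher and 5 lower, with a median of 0.10, and 1 was at least 2-fold higher and 1 lower. Around NUMBL on chromosome 19, 15 were higher and 5 lower, with a median of 0.30, and 0 were at least 2-fold higher and 1 lower. The median over all genes above the floor was 0.03. The largest rises beside NUMBL were those of ACTMAP (77.7 and 142, 1.83-fold) and BLVRB (440 and 799, 1.82-fold). The gene past 2-fold was the dim PRX (33.3 and 10.1, at least 2.68-fold lower). Whether position bears on the NUMBL reading was not tested.

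The genes whose pair of log2 values over the 2 arrays lay nearest to that of NRARP were TMEM94 (132 in parental and 50.8 in resistant cells), MYZAP (153 and 57.1) and NACC1 (116 and 43.3). They lay 0.64 to 0.69 log2 units from it, and each differed by less than NRARP did. Nearest to RBPJ were STRN4 (184 and 94.98), RP2 (183 and 96.1) and FBXO46 (179 and 94.7), within 0.10 log2 units. With 2 arrays, this likeness says only that the readings were close.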

How the data were processed

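RNA of 2 cultures was measured on Illumina bead arrays, 1 per line, from biotinylated cRNA, per the labels' protocols. The deposited table held 1 linear intensity per probe and array. The authors' background correction and scaling are not given in the sources used here. The values show equal extremes and upper quartiles, so a common shift of most genes would be hidden. The table held no detection p-values. The number of arrays limits the precision. Symbols came from the platform annotation (30113 probes with 1 symbol, 8 with several, 17202 with none), and 30074 were matched by Entrez ID to RefSeq GRCh38.p14. Intensities under an array's median were raised to it and log2 was taken with Python 3.11.15, pandas 2.3.3 and numpy 2.4.6, and the brightest probe stood for a gene of the wider list. The counting was tested on simulated data with 200 changed probes, all far above the higher floor and changed by an exact fold. That checks the code only and says nothing about readings as dim as those of NRARP, RBPJ or NUMBL. Members and lists were chosen with earlier results of these data known. The text names all members, the 3 largest differences of each role and any past 2-fold, the 3 genes nearest to NRARP and to RBPJ, and TWIST1. Other genes, and the comparison of chromosomal neighbours, were chosen after values were seen. Alternatives were the higher floor, an offset of 45.98 in place of the floor, centring on the median, quantile normalization, subtraction of a loess trend (statsmodels 0.14.6, span 0.3), folds of 1.5 and 3, and other rules for several probes.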

Additional observations from a re-analysis of the deposited data

How the results depend on the processing

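At the higher floor 0 member probes were at least 2-fold higher, and of the further pathway genes 0 passed 2-fold upwards and 0 downwards. With 45.98 added to every value in place of the floor, 0 member probes were higher and 1 lower, and 0 further pathway genes passed in either direction. A fold of 1.5 gave 11 of the 74 further pathway genes higher and 10 lower. Of all named probes above the floor, 25.7% passed 1.5-fold in either direction, so these counts are near the share over the whole array. A fold of 3 gave 0 further genes higher and 1 lower, and the mean over all probes gave 1 higher at 2-fold. With the brightest probe per member the median log2 difference turned from -0.03 to 0.11. Quantile normalization, median centring and removal of the loess trend left all of these counts unchanged. The deposited values were already matched in distribution between the arrays, so these alternatives could change little. Of 92 values of single member probes under an alternative, 4 moved by more than the spread of probes of similar brightness: the brighter NRARP probe at the higher floor (-1.17), and both NRARP probes (-1.45 and -0.63) and NUMBL (0.85) with the offset. The sign turned in 2 of the 92, the brightest JAG2 probe against the mean of its probes (-0.01) and against the mean of those above the floor (-0.02), the latter an alternative chosen after seeing the data. Higher floors and the offset shrink ratios by construction, so the smaller values under the offset do not come from removing the floor: a probe above the floor on both arrays has the same ratio without it. No paired analysis was possible because each line has 1 array.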
